A study of Homo sapiens with 11 samples.

Results

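The subject is a set of 1431 domain boundaries that the small cell lung carcinoma lines DMS153 and H209 had in common and that the lung fibroblast line MRC5 lacked. They were taken from the deposited lists of contact domains, 1 list per line, on the human assembly hg19. The starts and ends of all domains were collected without chromosome Y, and positions within 20 kb of one another were joined to their mean. A DMS153 boundary became a member when an H209 boundary lay within 40 kb of it and no MRC5 boundary did. The rule took 18% of the 7948 DMS153 boundaries. The lists differed in length, with 5023 domains in DMS153, 3975 in H209 and 3698 in MRC5. H209 had 6432 boundaries and MRC5 6008, the fewest. A boundary that MRC5 lacked is one absent from its list, and how far the length of the lists set the count was not tested. The members were thus chosen by the domain positions of the 3 lists, so every value from those lists is a description without a test. The RNA values were not used in the choice.

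Each line had 1 Hi-C library. RNA-seq was made from 3 replicates of DMS153, 2 replicates of H209 and 3 replicates of MRC5. DMS153 and H209 are established human lines of small cell lung carcinoma, a neuroendocrine tumour, and MRC5 is an established line of normal lung fibroblasts. The cells carried no treatment that differed between the lines, and each carcinoma line is set against fibroblasts, which are not the cell type that small cell carcinoma is thought to arise from. The sources used here do not say whether the replicate RNA libraries came from separate cultures, so the p-values measure only the spread between these libraries.

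Contact domains are stretches of a chromosome whose parts touch one another more often than they touch their surroundings, and a boundary is where one such stretch ends. Many boundaries are held by cohesin, the ring complex that extrudes DNA loops, and by CTCF, the zinc finger protein at which extrusion stalls, and active genes often lie close to them. Small cell lung carcinoma cells commonly express neuroendocrine genes, whereas lung fibroblasts express matrix and contractile genes.

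Sequences of the boundaries themselves were not used here. Sequences are shown for some genes whose loci reached within 40 kb of a member, from the RefSeq tables for GRCh38.p14. The first set is the mature microRNAs of MIRLET7F2 and MIR98, neighbouring loci at 1 member on chromosome X, together with miR-200c-3p from the member beside ENO2 on chromosome 12. Capitals mark the seed, bases 2 to 8.
let-7f-5p: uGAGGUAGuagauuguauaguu
miR-98-5p: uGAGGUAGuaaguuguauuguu
miR-200c-3p: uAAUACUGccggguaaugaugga
The microRNAs let-7f-5p and miR-98-5p carry the same seed, GAGGUAG, and miR-200c-3p carries another.

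The second set is the promoters of 3 boundary genes, each the window of the table around the RefSeq gene start, mostly before it, 5′ to 3′ on the strand of the gene. GRP encodes gastrin-releasing peptide, a growth-promoting neuropeptide of these tumours. Capitals in its promoter mark the TATA motif TATAAA.
GRP: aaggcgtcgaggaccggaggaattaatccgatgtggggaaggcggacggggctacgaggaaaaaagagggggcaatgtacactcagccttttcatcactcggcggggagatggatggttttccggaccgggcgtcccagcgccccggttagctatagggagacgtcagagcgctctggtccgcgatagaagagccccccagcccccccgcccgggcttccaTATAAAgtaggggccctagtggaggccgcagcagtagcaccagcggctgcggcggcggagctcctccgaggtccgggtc
MYCL encodes the L-MYC transcription factor and CDKN1A the cell cycle inhibitor p21. Capitals in their promoters mark matches to the E-box, CANNTG, the motif that basic helix-loop-helix factors such as MYC proteins bind.
MYCL: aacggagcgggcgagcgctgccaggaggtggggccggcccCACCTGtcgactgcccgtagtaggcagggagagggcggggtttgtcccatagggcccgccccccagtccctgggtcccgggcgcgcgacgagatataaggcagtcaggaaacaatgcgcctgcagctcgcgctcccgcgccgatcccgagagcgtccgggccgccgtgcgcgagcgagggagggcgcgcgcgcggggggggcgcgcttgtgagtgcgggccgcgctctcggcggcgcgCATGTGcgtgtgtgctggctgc
CDKN1A: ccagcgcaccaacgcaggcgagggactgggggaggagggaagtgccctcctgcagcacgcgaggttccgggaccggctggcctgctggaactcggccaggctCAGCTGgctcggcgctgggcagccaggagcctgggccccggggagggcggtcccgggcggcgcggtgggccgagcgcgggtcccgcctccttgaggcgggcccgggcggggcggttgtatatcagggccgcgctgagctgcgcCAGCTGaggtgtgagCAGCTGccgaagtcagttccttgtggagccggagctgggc
These promoters lie at chr18:59219908-59220207 on the plus strand, chr1:39901868-39902167 on the minus strand and chr6:36678464-36678763 on the plus strand of GRCh38.p14.

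Promoters were found for 1096 tested boundary genes. The E-box, searched on both strands, occurred in 63.5% of them, against 60.7% of the 11003 promoters of all tested genes and 68.9% of all 27305 promoters in the table. Its form CAGCTG, one of the matches to CANNTG, occurred in 18.1% of boundary gene promoters, against 17.3% of those of all tested genes and 17.7% of all. The TATA motif occurred in 6.84%, against 5.93% and 12.0%, and the GC-box GGGCGG in 67.2%, against 68.3% and 44.6%. The CTCF core motif occurred in 0.365% of boundary gene promoters, against 0.573% of those of all tested genes and 0.527% of all. The boundary gene promoters thus held these motifs about as often as those of all tested genes, and a match is a description of the letters and not a bound site.

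Most members lay at the same place in both carcinoma lines. Of the 1431, 1020 (71.3%) matched an H209 boundary to within 1 base on the 20 kb grid of the lists, 333 lay up to 20 kb from one, and 78 lay over 20 kb and up to 40 kb from one. The nearest MRC5 boundary was a median of 200 kb away, with quartiles of 110 and 380 kb and a maximum of 3340 kb. Just inside the limit, 132 members lay no more than 60 kb from an MRC5 boundary, and 10 of those lay within 1 base of the 40 kb limit itself. At the far end, 65 members lay more than 1 Mb from an MRC5 boundary. Just outside the rule were 243 boundaries shared by both carcinoma lines with an MRC5 boundary over 20 kb and up to 40 kb away, and 123 DMS153 boundaries without MRC5 whose nearest H209 boundary was over 40 kb and up to 60 kb away.

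**Figure D1:**
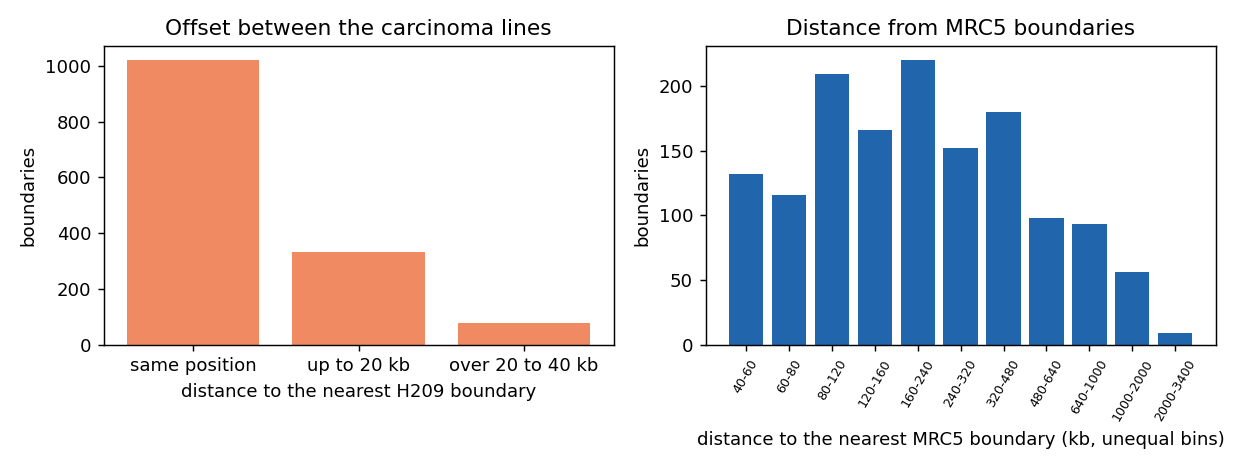
Number of carcinoma-shared boundaries by distance to the nearest H209 boundary (left) and to the nearest MRC5 boundary in kb (right, bins of unequal width). Of 1431 boundaries 1020 coincide with an H209 boundary, and the median distance to MRC5 is 200 kb.

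In MRC5, 570 members (39.8%) fell inside a listed domain and 861 fell outside the listed domains. Counted once per member, the smallest MRC5 domain around each of the 570 members had a median size of 640 kb. All listed domains of DMS153, H209 and MRC5 had medians of 240, 300 and 300 kb. By the rule a member lies over 40 kb from any MRC5 boundary, and longer domains leave more room for one. The larger size is thus partly set by the rule. When the MRC5 domain around each member was split into 3 equal parts, 208 of the 570 members (36.5%) fell in the middle part. The rule also affects this share. In DMS153, 340 members (23.8%) were both the end of one domain and the start of the next, against 40.2% of the 4138 boundaries found in all 3 lines and 14.0% of the 1670 found in DMS153 only. The deposited score of the adjoining domains, the authors' value whose meaning is not stated, had a median of 2.12 at members, 2.36 at boundaries of all 3 lines and 1.96 at those of DMS153 only. By both measures the members stood between the boundaries common to the 3 lines and those of DMS153 only. So did the 709 boundaries of DMS153 and MRC5 but not H209, at 22.0% and a median score of 2.07.

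Members occurred on every chromosome examined, with the highest counts on chromosome 1 (118) and chromosome 3 (117). Their share of the DMS153 boundaries of a chromosome was highest on chromosome X (22.5%), chromosome 4 (21.9%) and chromosome 13 (21.2%), and lowest on chromosome 17 (12.5%), chromosome 19 (12.8%) and chromosome 5 (14.1%). The members farthest from any MRC5 boundary were 3 positions on chromosome X, 90259999, 143160000 and 3859999, at 3340, 3320 and 3180 kb. No annotated locus reached within 40 kb of the first and the second, and 3 unnamed loci did at the third.

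The 1431 members had 3537 annotated loci within 40 kb, with a median of 2 loci per member and a maximum of 19. Of these loci, 1641 were protein-coding. The position itself fell inside a locus at 830 members (58.0%), and at 142 members no locus came within 40 kb. RNA levels were deposited in FPKM, which counts fragments per length of transcript and per depth of the library, and genes were tested when at least 2 of the 8 libraries reached 1 FPKM. By this filter 1710 of the 3537 loci were tested, 1306 of them protein-coding, and 439 members had no tested gene. A gene that passed only through the line in which it was high had to differ, so the counts below are set against all tested genes, which passed the same filter.

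Genes at these boundaries were called higher somewhat more often than tested genes at large in DMS153, and only slightly more often in H209. A gene was called at a limma adjusted p below 0.05 over all 19066 tested genes together with a change of 1 or more in either direction on the log2(FPKM + 1) scale, which understates the change of low genes. In DMS153 against MRC5, 704 of the 1710 boundary genes (41.2%) were called higher, against 34% of all tested genes, and 253 (14.8%) lower, against 16.4%. In H209 against MRC5, 618 (36.1%) were called higher, against 33%, and 233 (13.6%) lower, against 14.9%. The median log2 fold change of boundary genes was 0.63 in DMS153 and 0.51 in H209, against 0.44 and 0.46 over all tested genes. The 2 comparisons share the MRC5 libraries. The share called higher exceeded the background by more in DMS153 than in H209, and the difference between boundary genes and other genes was not tested.

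Among protein-coding genes alone, 526 of 1306 (40.3%) were called higher in DMS153, against 31.9% of all tested protein-coding genes, and 482 (36.9%) in H209, against 33.2%. Counted over all 1641 protein-coding loci near members, tested or not, 73.1% averaged at least 1 FPKM in the DMS153 libraries, 70.6% in those of H209 and 59.0% in those of MRC5. Over all 17748 protein-coding loci these shares were 66.3%, 65.7% and 59.3%. In MRC5 the loci near members were thus detected about as often as protein-coding loci in general, and in the carcinoma lines more often. Near boundaries of all 3 lines the shares were 74.0% in DMS153, 73.5% in H209 and 66.7% in MRC5. Near boundaries of MRC5 only they were 69.1%, 68.9% and 64.1%, and near those of DMS153 only 68.1%, 64.2% and 58.0%. Frequent detection in the carcinoma lines was thus not particular to members. Among the detected loci near members, the median level was 12.9 FPKM in each of the 3 lines.

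**Figure D2:**
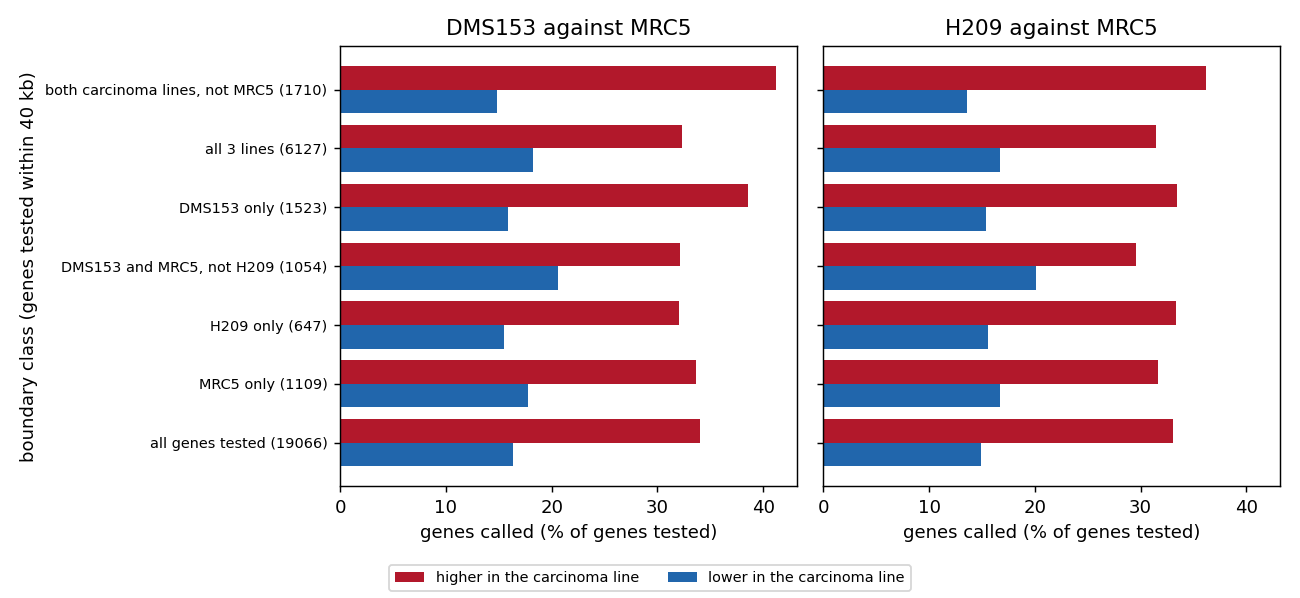
Share of tested genes within 40 kb that were called higher (red) or lower (blue) in DMS153 (left) and H209 (right) against MRC5, in percent, for each class of boundary, with the number of tested genes in brackets and all tested genes at the bottom. The carcinoma-shared boundaries have the longest red bar in both panels, 41.2% and 36.1%.

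Near each of the other classes of boundary the share called higher was lower than near members in both comparisons, and these differences were not tested. Of the tested genes near boundaries of all 3 lines, 32.3% were called higher in DMS153 and 31.5% in H209. Near boundaries of DMS153 only the shares were 38.5% and 33.4%, near boundaries of DMS153 and MRC5 but not H209 32.2% and 29.6%, near boundaries of H209 only 32.0% and 33.4%, and near boundaries of MRC5 only 33.6% and 31.7%. The classes share genes, because a locus can lie near more than 1 boundary. With the genes that also lay near another class of boundary left out, 1243 boundary genes remained, of which 39.5% were called higher in DMS153, against the background of 34%, and 434 (34.9%) in H209, against 33%.

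The scaling of the libraries moved these counts. Of the called boundary genes, 73.6% were higher in DMS153 and 72.6% in H209 with FPKM as deposited, against 67.5% and 68.9% of all called genes. Under median ratio scaling 575 were higher and 350 lower in DMS153 (62.2% higher), and 454 higher and 369 lower in H209 (55.2%). Over all tested genes the same scaling gave 5082 higher and 4388 lower in DMS153 (53.7% higher), and 4275 and 4303 in H209 (49.8%). Under quantile normalization 500 were higher and 348 lower in DMS153 (59.0%), and 448 higher and 319 lower in H209 (58.4%), while all tested genes gave 4243 and 4432 in DMS153 (48.9%), and 4087 and 3800 in H209 (51.8%). The median of all tested genes itself moved to 0.10 in DMS153 and 0.04 in H209 under median ratio scaling, to -0.03 and 0.03 under quantile normalization, to 0.14 and 0.70 under TPM scaling, and to 0.66 and 0.63 when libraries were rescaled without small RNA and mitochondrial genes. Relative to that median, boundary genes stood 0.20 higher in DMS153 and 0.05 higher in H209 as deposited, and 0.18 to 0.21 and 0.04 to 0.08 higher under the 4 other scalings tried.

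The share called higher was largest for genes that held the boundary within their own locus. Among 616 such genes, 45.3% were called higher in DMS153 and 38.8% in H209. At over 0 to 20 kb the shares were 39.6% and 36.2%, and at 20 to 40 kb 37.8% and 32.4%. The 758 genes at 40 to 80 kb, beyond the distance used to define boundary genes, had 39.4% and 35.8%, above the genes at 20 to 40 kb in both lines. At 80 to 160 kb the shares were 34.4% and 33.1%. Among 2111 genes at 160 to 320 kb the shares were 33.7% in DMS153 and 34.6% in H209, which is near the background of 34% and 33%. The shares called lower stayed between 12.1% and 17.4% in DMS153 and between 11.6% and 14.1% in H209 over all distances. A longer locus can more readily hold a boundary, and locus length was not taken into account. With a gene start or end required within 40 kb, 39.8% of 1567 boundary genes were called higher in DMS153 and 35.7% in H209.

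**Figure D3:**
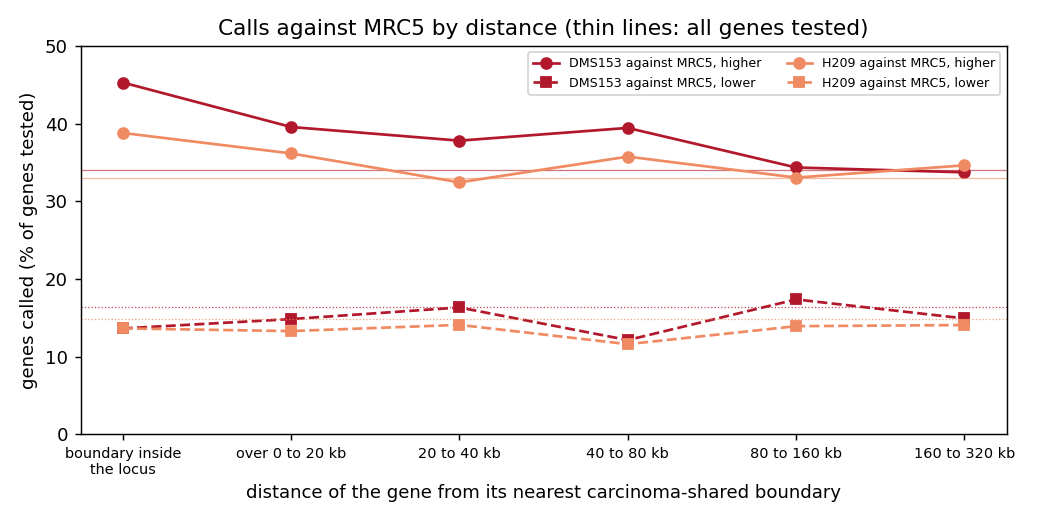
Share of tested genes called higher (circles, solid lines) or lower (squares, dashed lines) against MRC5, in percent, by distance to the nearest carcinoma-shared boundary, with thin lines for all tested genes. In DMS153 the share called higher is 45.3% where the boundary lies inside the locus and 33.7% at 160 to 320 kb.

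The libraries kept to their labels. The summed FPKM of 16 neuroendocrine markers was 3027 to 3475 in DMS153, 2355 to 2373 in H209 and 720 to 810 in MRC5, where 4 of them were listed at 0 in all libraries. The summed FPKM of 15 fibroblast markers was 15.6 to 18.2 in DMS153, 133 to 147 in H209 and 12463 to 13616 in MRC5, and of 12 epithelial markers 1649 to 1785, 1486 to 1501 and 96.4 to 108. Immune and endothelial marker sums stayed below 1.85 FPKM in both carcinoma lines and between 22.7 and 34.4 in MRC5. Genes at 1 FPKM or more numbered 16462 to 16580 in DMS153, 15963 to 16053 in H209 and 13425 to 13560 in MRC5. Small RNA loci took 39.9% to 44.2% of the summed FPKM in DMS153, at most 0.310% in H209 and at most 0.161% in MRC5. With the libraries rescaled without small RNA and mitochondrial genes, 799 of the 1710 boundary genes were called higher and 201 lower in DMS153, against 7623 and 2495 of all 19066 tested genes.

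The neuroendocrine and neuronal list had 22 of its 114 genes within 40 kb of a member, and the cell cycle and replication list 19 of 136. Of all 17748 protein-coding loci, 1641 lay that near, and these shares were not compared by a test. The chromatin list had 12 of 91, the epithelial list 5 of 48, and the contractile and growth factor lists 5 of 65 each. Fewer lay near in the matrix list (4 of 106), the YAP to Notch list (3 of 90) and the antigen presentation list (2 of 83). Any part of a locus counted as near, and locus length was not taken into account. Of the 22 neuroendocrine and neuronal genes, 21 were tested. Of these, 18 were called higher and none lower in DMS153, and 17 higher and 2 lower in H209. Their median log2 fold changes were 2.99 and 3.40, against medians of 0.44 and 0.46 over all tested genes, and against 4.19 and 3.89 over the 113 tested genes of the whole list, of which 97 and 96 were called higher. The lists hold genes known to separate such tumours from fibroblasts, so the direction of a list is not independent evidence, and boundary genes of this list were called higher about as often as the list as a whole.

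GRP (ENSG00000134443.5, hg19 chr18:56887400-56898006) ended 1.99 kb from a member at 56899999, which H209 had at the same position and MRC5 lacked for 160 kb. It had 762, 767 and 798 FPKM in DMS153, 165 and 168 in H209, and was listed at 0 in the 3 MRC5 libraries (limma adjusted p = 5.56e-14 for DMS153 and 1.09e-11 for H209 against MRC5). The carcinoma libraries lay far above MRC5 without overlap, which the choice of GRP required, and DMS153 lay above H209.

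ISL1, a LIM homeodomain factor of motor neurons and endocrine cells, had 5.70, 7.66 and 5.27 FPKM in DMS153, 58.5 and 55.7 in H209, and was listed at 0 in MRC5. SOX1, a factor of neural progenitors, had 32.1, 35.2 and 30.7 FPKM in DMS153, 43.8 and 42.9 in H209, and at most 0.00615 in MRC5. Neither gene overlapped between a carcinoma line and MRC5. ST18, a zinc finger factor of the MYT family on chromosome 8, contained a member at 53040000. It had 212, 221 and 192 FPKM in DMS153, 40.1 and 34.1 in H209, and at most 0.0271 in MRC5, so that its log2 fold change was 7.69 ± 0.08 (SE) in DMS153 and 5.23 ± 0.09 in H209 (limma adjusted p = 3.63e-12 and 1.1e-10). RTN1, a reticulon of the endoplasmic reticulum of neuroendocrine cells, contained a member at 60159999 on chromosome 14. It had 60.5, 61.6 and 52.5 FPKM in DMS153, 120 and 135 in H209, and 0.601, 0.523 and 0.620 in MRC5, with log2 fold changes of 5.22 ± 0.08 and 6.34 ± 0.09. Of this pair, ST18 was the higher in DMS153 and RTN1 the higher in H209.

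Other members of the list were not called higher in both lines. CADM1, a cell adhesion molecule, had 90.7, 101 and 103 FPKM in DMS153, 51.9 and 48.6 in H209, and 143, 142 and 135 in MRC5, and was called lower in H209 with a log2 fold change of -1.46 ± 0.08 (SE). NLGN1, a postsynaptic adhesion protein, had 5.11, 5.64 and 4.84 FPKM in DMS153, 0.736 and 0.471 in H209, and 4.20, 2.94 and 5.01 in MRC5. NLGN1 overlapped between DMS153 and MRC5 and was called lower in H209, with a log2 fold change of -1.64 ± 0.17. NEFL, the light neurofilament, had 2.48, 1.39 and 3.81 FPKM in DMS153 and at most 0.0137 in the H209 and 0.00917 in the MRC5 libraries.

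Of 48 epithelial genes, 5 lay near members and were tested, and 4 were called higher in DMS153 and 5 in H209, with median log2 fold changes of 4.92 and 4.92. Of the 44 tested genes of the whole list, 40 and 39 were called higher, with medians of 3.82 and 4.07. Under quantile normalization 4 of the 5 were called higher in H209. EPCAM, an adhesion protein of epithelial cells (ENSG00000119888.6, chr2:47572297-47614740), ended 25.3 kb before a member at 47639999 that H209 had at the same position. It had 323, 253 and 294 FPKM in DMS153, 281 and 279 in H209, and 0.161, 0.123 and 0.0462 in MRC5, with log2 fold changes of 8.03 ± 0.09 (SE) and 7.99 ± 0.10 (limma adjusted p = 5.55e-12 and 3.24e-11). The H209 libraries lay inside the DMS153 range, and the difference between the carcinoma lines did not pass the test (limma adjusted p = 0.731). ST14, the membrane serine protease matriptase, contained a member at 130079999 on chromosome 11. It had 82.3, 85.1 and 84.3 FPKM in DMS153, 62.6 and 60.1 in H209, and at most 1.4e-05 in MRC5. MAL2, a protein of apical membrane traffic, had 29.1, 28.5 and 30.3 FPKM in DMS153, 30.4 and 28.4 in H209, and at most 0.0116 in MRC5. MARVELD3, a tight junction protein, had 4.09, 3.57 and 4.71 FPKM in DMS153, 5.30 and 5.86 in H209, and at most 0.00301 in MRC5. These epithelial genes were separated from MRC5 in every library of both carcinoma lines, which the choice required of EPCAM and ST14. In contrast, SFTPA1, a surfactant protein, had a log2 fold change of 0.07 in DMS153 and was called higher in H209 only with 1.32.

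The other genes with the largest increases in both lines came from no single list. KLK11, a secreted serine protease of the kallikrein family, had 59.5, 67.5 and 48.5 FPKM in DMS153, 73.7 and 73.1 in H209, and at most 0.0025 in MRC5. WNK2, a serine/threonine kinase, had 63.5, 75.5 and 55.1 FPKM in DMS153, 47.2 and 45.4 in H209, and at most 0.0708 in MRC5, and it contained a member 350 kb from any MRC5 boundary. NOL4, a nucleolar protein, had 48.5, 53.6 and 46.6 FPKM in DMS153, 42.0 and 44.1 in H209, and at most 0.0374 in MRC5, and it contained a member 460 kb from MRC5. All 3 genes were separated from MRC5 in every library. DNAJC12, a co-chaperone of the HSP40 family, had 48.3, 36.9 and 67.0 FPKM in DMS153, 53.7 and 56.9 in H209, and at most 0.328 in MRC5. ANKRD6, an ankyrin repeat protein of WNT signalling, had 85.4, 92.1 and 89.0 FPKM in DMS153, 41.3 and 52.9 in H209, and at most 0.208 in MRC5, and its locus held a member. Their log2 fold changes were 5.40 ± 0.18 (SE) in DMS153 and 5.57 ± 0.21 in H209 for DNAJC12, and 6.29 ± 0.09 and 5.38 ± 0.11 for ANKRD6.

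**Figure D4:**
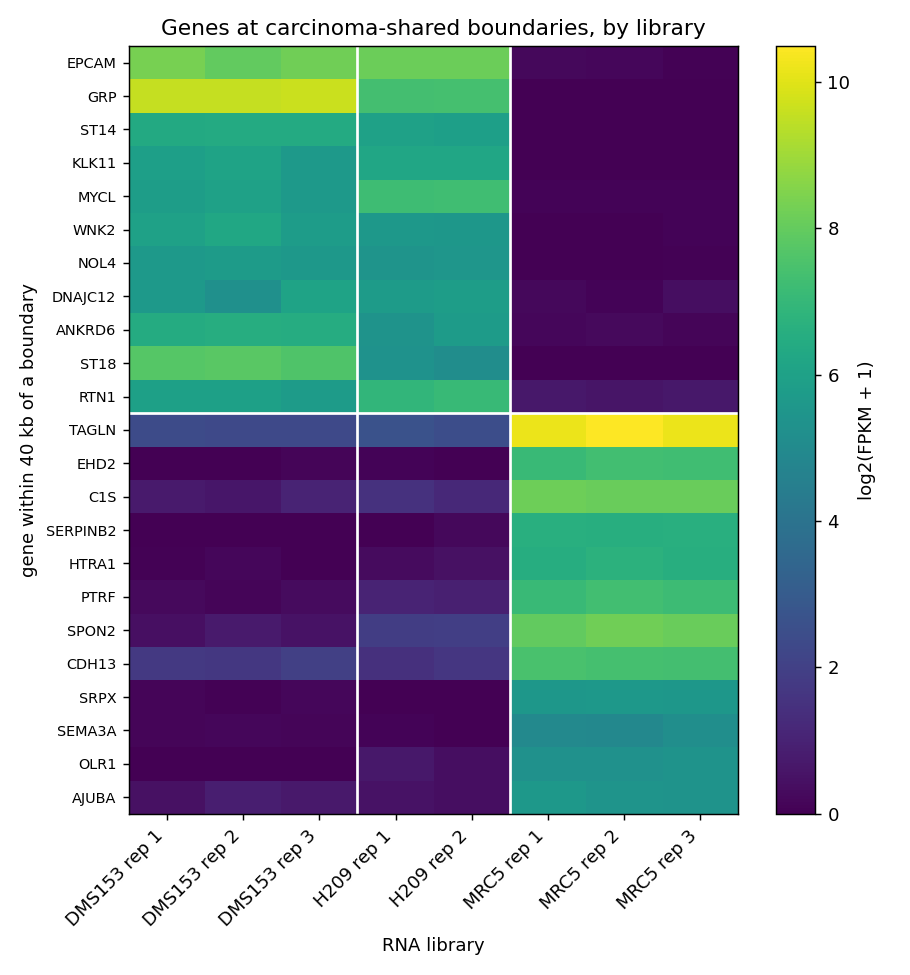
Level on the log2(FPKM + 1) scale, by colour, of 11 of the 12 genes with the largest increases (upper rows) and the 12 with the largest decreases (lower rows) in both carcinoma lines within 40 kb of a member, in each of the 8 RNA libraries. The DMS153 and H209 columns are alike in direction for all 23 genes, as the choice of genes requires, and differ in level, with GRP and ST18 higher in DMS153.

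Cell cycle and replication genes near members were higher in both carcinoma lines with 1 exception. Of 136 listed, 18 were tested near members, and 17 were called higher and 1 lower in DMS153 and also in H209, against 116 and 7 of 134 tested in the whole list in DMS153. The median log2 fold change was 3.35 in DMS153 and 2.90 in H209. MYCL (ENSG00000116990.9, chr1:40361098-40367928), the MYC family member amplified in some small cell carcinomas, ended 12.1 kb before a member at 40379999 that H209 had at the same position, with MRC5 120 kb away. It had 55.9, 63.9 and 48.3 FPKM in DMS153, 150 and 155 in H209, and 0.0718, 0.0659 and 0.0612 in MRC5, with log2 fold changes of 5.73 ± 0.10 (SE) and 7.17 ± 0.11 (limma adjusted p = 5.19e-11 and 5.78e-11). TRIT1, a tRNA-modifying enzyme beside MYCL, had 64.0, 73.6 and 66.8 FPKM in DMS153, 184 and 192 in H209, and 7.54, 7.96 and 8.63 in MRC5. Both neighbours were highest in H209, with no overlap between the lines, which the choice required of MYCL for each carcinoma line against MRC5.

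ASPM, a spindle pole protein, had 56.4, 50.01 and 44.998 FPKM in DMS153, 18.1 and 16.1 in H209, and 0.506, 0.530 and 0.658 in MRC5. BUB1B, a spindle checkpoint kinase, had 52.3, 49.4 and 35.7 FPKM in DMS153, 35.4 and 30.1 in H209, and 1.77, 1.74 and 1.40 in MRC5. RRM2, a subunit of ribonucleotide reductase, had 76.2, 90.5 and 68.4 FPKM in DMS153, 62.9 and 64.3 in H209, and 5.59, 5.90 and 5.55 in MRC5. Each of the 3 was separated from MRC5 in every library. The exception was CDKN1A, encoding the inhibitor p21 (ENSG00000124762.9, chr6:36644305-36655116), which ended 4.88 kb from a member at 36660000 that lay only 50 kb from an MRC5 boundary. CDKN1A had 22.3, 22.8 and 29.6 FPKM in DMS153, 63.8 and 56.2 in H209, and 734, 814 and 768 in MRC5, with log2 fold changes of -4.91 ± 0.11 (SE) and -3.67 ± 0.12 (limma adjusted p = 2.86e-10 and 5.4e-09).

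Genes of chromatin architecture and modification near members were called higher or not at all with FPKM as deposited. Of 12 tested, 9 were called higher in DMS153 and 8 in H209 and none lower, and under median ratio scaling 6 and 3 were. The median log2 fold change of 1.47 in DMS153 and 1.18 in H209 stood beside 1.42 and 1.42 for the 89 tested genes of the whole list. STAG2, a subunit of the cohesin ring, contained a member at 123339999 on chromosome X, and had 150, 157 and 139 FPKM in DMS153, 46.8 and 35.6 in H209, and 16.2, 15.5 and 15.8 in MRC5. Its log2 fold change was 3.15 ± 0.10 (SE) in DMS153 and 1.31 ± 0.11 in H209, and the H209 value fell to 0.72 under median ratio scaling, below the call. SMC2, the ATPase of condensin, had 70.0, 67.8 and 49.8 FPKM in DMS153, 48.0 and 46.5 in H209, and 3.72, 3.20 and 4.14 in MRC5. SATB1, an organizer of chromatin loops, had 22.2, 26.5 and 26.3 FPKM in DMS153, 12.5 and 12.6 in H209, and 2.12, 2.99 and 2.79 in MRC5, and its locus held a member 580 kb from MRC5. DNMT3A, a DNA methyltransferase, had 19.9, 22.1 and 19.7 FPKM in DMS153, 15.0 and 14.8 in H209, and 3.23, 2.74 and 2.81 in MRC5. As deposited, the FPKM of all 4 did not overlap between the lines and was highest in DMS153. The log2 difference in DMS153 against H209 was small for SMC2 (0.38) and DNMT3A (0.44), was not called for either, and changed sign under TPM scaling, to -0.26 and -0.18.

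Genes of the fibroblast programme near members were lower in both carcinoma lines. Of 65 contractile and focal adhesion genes, 5 were tested near members and all 5 were called lower in both comparisons, against 56 of the 64 tested in the whole list in each. Of 106 matrix and fibroblast genes, 3 were tested near members and all 3 were called lower in both, against 93 of 99. TAGLN, the actin-binding protein transgelin (ENSG00000149591.12, chr11:117070037-117075498), ended 24.5 kb before a member at 117099999 that lay inside PCSK7, a proprotein convertase. It had 4.25, 3.97 and 3.96 FPKM in DMS153, 5.30 and 4.53 in H209, and 1151, 1435 and 1164 in MRC5, with log2 fold changes of -7.94 ± 0.10 (SE) and -7.72 ± 0.11 (limma adjusted p = 7.78e-12 and 4.21e-11). PCSK7 itself had 20.5, 22.0 and 23.4 FPKM in DMS153, 36.2 and 35.1 in H209, and 63.8, 81.2 and 71.7 in MRC5. Both genes, whose loci overlap at their ends, were lower in every carcinoma library than in any MRC5 library, which the choice required of TAGLN.

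PTRF, the caveolar coat protein cavin-1, contained a member at 40560000 on chromosome 17 and had 0.210, 0.105 and 0.232 FPKM in DMS153, 1.08 and 0.889 in H209, and 138, 158 and 145 in MRC5. EHD2, an ATPase at the neck of caveolae, had 0.0245, 0.016 and 0.104 FPKM in DMS153, 0.0631 and 0.0285 in H209, and 137, 158 and 156 in MRC5. Both caveolar genes stayed at or below 1.08 FPKM in every carcinoma library. FERMT2, the integrin activator kindlin-2, had 12.2, 14.6 and 12.4 FPKM in DMS153, 15.4 and 16.6 in H209, and 86.7, 90.5 and 95.2 in MRC5. MYH9, the heavy chain of non-muscle myosin, had 90.5, 97.0 and 93.4 FPKM in DMS153, 56.4 and 55.7 in H209, and 300, 325 and 307 in MRC5. FERMT2 and MYH9 kept substantial levels in the carcinoma lines, with log2 fold changes between -2.71 and -1.72.

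FAP, a serine protease of activated fibroblasts, had 0.337, 0.220 and 0.681 FPKM in DMS153, at most 0.0583 in H209, and 33.3, 26.9 and 28.3 in MRC5. LOXL1, a crosslinker of elastin, had 4.38, 4.08 and 3.81 FPKM in DMS153, 19.1 and 20.6 in H209, and 69.6, 94.5 and 76.8 in MRC5. PLOD2, a lysyl hydroxylase of collagen, had 21.4, 19.1 and 19.6 FPKM in DMS153, 8.83 and 7.27 in H209, and 70.0, 58.5 and 68.2 in MRC5. These 3 matrix genes were lower without overlap, and LOXL1 was lowest in DMS153 whereas PLOD2 was lowest in H209.

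Further genes with the largest decreases encode secreted and surface proteins. C1S, a protease of complement, had 0.703, 0.533 and 1.04 FPKM in DMS153, 1.78 and 1.31 in H209, and 285, 275 and 272 in MRC5. SERPINB2, an inhibitor of plasminogen activators, had at most 0.000619 FPKM in DMS153, 0.0059 and 0.159 in H209, and 98.2, 95.6 and 97.5 in MRC5. HTRA1, a secreted serine protease, had at most 0.150 FPKM in DMS153, 0.245 and 0.373 in H209, and 92.7, 106 and 94.9 in MRC5. All 3 were separated from MRC5 by more than 6 on the log2 scale. SPON2, a matrix protein of the spondin family, had 0.338, 0.698 and 0.440 FPKM in DMS153, 2.76 and 2.84 in H209, and 248, 293 and 271 in MRC5. CDH13, a cadherin anchored by a lipid, contained a member 520 kb from MRC5 and had 2.37, 2.21 and 3.00 FPKM in DMS153, 1.71 and 2.2 in H209, and 179, 168 and 163 in MRC5. SEMA3A, a secreted guidance cue, contained a member and had at most 0.127 FPKM in DMS153, at most 0.0629 in H209, and 29.8, 28.9 and 35.3 in MRC5. OLR1, a scavenger receptor, was listed at 0 in DMS153 and had 0.607 and 0.320 FPKM in H209, and 38.9, 38.9 and 41.3 in MRC5. SRPX, a sushi repeat protein whose locus held a member, had at most 0.151 FPKM in the carcinoma libraries and 45.3, 46.7 and 45.3 in MRC5.

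Of the YAP, TGF-beta, WNT and Notch genes, 3 were tested near members, against 84 in the whole list. AJUBA, a LIM protein that restrains the Hippo kinases, had 0.391, 0.826 and 0.663 FPKM in DMS153, 0.436 and 0.295 in H209, and 47.5, 42.7 and 40.4 in MRC5. LTBP2, a matrix protein of the family that binds latent TGF-beta, had 1.01, 0.787 and 1.40 FPKM in DMS153, 0.356 and 0.390 in H209, and 32.6, 30.7 and 33.7 in MRC5. FZD3, a WNT receptor, had 3.97, 5.10 and 3.73 FPKM in DMS153, 5.95 and 4.62 in H209, and at most 0.0349 in MRC5. AJUBA and LTBP2 were called lower and FZD3 higher in both comparisons. Of the growth factor receptors and ligands, 2 were tested near members. EPHA7, an ephrin receptor whose locus held a member 580 kb from MRC5, had 8.86, 8.18 and 9.69 FPKM in DMS153, 5.48 and 4.64 in H209, and 0.401, 0.375 and 0.301 in MRC5. IGF2R, which clears IGF2 from the cell surface, had 47.6, 49.4 and 62.0 FPKM in DMS153, 24.8 and 28.5 in H209, and 117, 118 and 129 in MRC5. EPHA7 was called higher and IGF2R lower in both, and the IGF2R call in DMS153 was lost, at a log2 fold change of -0.89, when libraries were rescaled without small RNA and mitochondrial genes.

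Of the antigen presentation, interferon and inflammation genes, 2 of 70 tested lay near members. IFI6, an interferon-induced protein, had 18.7, 18.1 and 23.8 FPKM in DMS153, 0.899 and 0.911 in H209, and 10.0, 12.9 and 10.1 in MRC5. It was called lower in H209, with a log2 fold change of -2.65 ± 0.14 (SE), and was not called in DMS153. STAT3, a transcription factor of cytokine signalling, had 30.3, 27.1 and 41.3 FPKM in DMS153, 27.3 and 28.2 in H209, and 41.9, 37.1 and 40.4 in MRC5, and was called in neither.

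Boundaries common to both carcinoma lines also bordered genes that the lines expressed differently. In DMS153 against H209, 260 of the 1710 boundary genes (15.2%) were called higher, against 13.8% of all tested genes, and 195 (11.4%) lower, against 13.4%. The median log2 fold change was 0.04, against -0.04 over all tested genes. The split of the calls, 57.1% higher, became 25.8% under TPM scaling, with 173 higher and 497 lower, while the split over all tested genes was 50.7% as deposited and 22.0% under TPM scaling, where the median of all tested genes moved to -0.60. Relative to that median, boundary genes stood 0.08 higher as deposited and 0.07 to 0.10 higher under the 4 other scalings.

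MIR17HG, the host transcript of the miR-17-92 cluster, had 2096, 2059 and 2316 FPKM in DMS153, against 1.67 and 1.80 in H209, and 0.281, 0.440 and 0.568 in MRC5. It ended 13.2 kb before a member at 92019999 on chromosome 13, 460 kb from MRC5. MIR155HG, the host of miR-155, had 73.4, 175 and 99.2 FPKM in DMS153, against 0.0586 and 0.0753 in H209, and 0.741, 0.532 and 0.470 in MRC5. Both transcripts were high in DMS153 alone, and small RNA loci inside such hosts can share their reads. OLFM1, a secreted olfactomedin of neurons, had 22.0, 24.0 and 17.7 FPKM in DMS153, against 0.238 and 0.547 in H209 and at most 0.323 in MRC5, with a log2 fold change of 4.00 ± 0.14 (SE) in DMS153 against H209. OLFM1 was low in both H209 and MRC5.

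Some neuronal genes were higher in H209, but more of the neuroendocrine and neuronal list near members were higher in DMS153 with FPKM as deposited. In DMS153 against H209, 9 of its 21 tested genes near members were called higher and 4 lower, with a median log2 fold change of 0.77, against 36 and 20 of the 113 of the whole list and a median of 0.09. NEUROG2, a proneural factor, had 0.127, 0.239 and 0.236 FPKM in DMS153, against 23.1 and 23.9 in H209, and at most 0.000505 in MRC5, and lay 22.7 kb from a member that both lines had at 113460000 on chromosome 4. DPP6, an auxiliary subunit of neuronal potassium channels, contained a member and had 0.377, 0.281 and 0.270 FPKM in DMS153, against 23.7 and 21.6 in H209, and at most 0.00611 in MRC5. FGD3, an exchange factor for CDC42, contained a member and had 2.98, 3.91 and 2.56 FPKM in DMS153, against 52.3 and 56.2 in H209, and at most 7.9e-05 in MRC5. Their log2 fold changes in DMS153 against H209 were -4.35 ± 0.08 (SE) for NEUROG2, -4.17 ± 0.08 for DPP6 and -3.75 ± 0.13 for FGD3 (limma adjusted p = 4.63e-10, 7.62e-10 and 2.46e-08). All 3 were chosen for their difference between the carcinoma lines, and the boundary at each was listed in both. FGD3 was also called higher in DMS153 against MRC5, with a log2 fold change of 2.04 ± 0.11 (SE), whereas NEUROG2 and DPP6 were not called there.

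The member with the most called genes lay at 50380000 on chromosome 19, where both carcinoma lines had the same position and MRC5 lacked a boundary for 60 kb. Of 10 tested genes there, 6 were called higher in DMS153 and 8 in H209, and none lower. MED25, a Mediator subunit, had 60.99, 67.9 and 59.9 FPKM in DMS153, 72.3 and 80.6 in H209, and 13.2, 14.6 and 14.9 in MRC5. NUP62, a nuclear pore protein, had 40.7, 49.1 and 39.3 FPKM in DMS153, 51.4 and 56.2 in H209, and 16.6, 19.2 and 18.2 in MRC5. The calls of NUP62 were lost under median ratio scaling, at log2 fold changes of 0.75 in DMS153 and 0.93 in H209. AKT1S1, an inhibitor of the mTOR complex that the position itself cut, was not called in either line.

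At 7059999 on chromosome 12, 14 genes were tested, and 4 were called higher and 1 lower in DMS153, and 5 higher and 1 lower in H209. ENO2, the neuron-specific enolase used as a serum marker of this tumour, had 83.9, 93.7 and 88.2 FPKM in DMS153, 209.2 and 224 in H209, and 17.3, 18.04 and 14.5 in MRC5. PTPN6, the phosphatase SHP-1 that held the boundary, had 19.9, 20.6 and 22.9 FPKM in DMS153, 20.0 and 24.8 in H209, and 0.114, 0.123 and 0.145 in MRC5. C1S, described above, lay 36.4 kb beyond the boundary on the other side from ENO2. Across this member ENO2 and PTPN6 were thus called higher and C1S lower in both lines. ATN1, C12orf57 and PHB2 between them were called in neither, nor was LPCAT3, whose locus overlaps that of C1S.

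**Figure D5:**
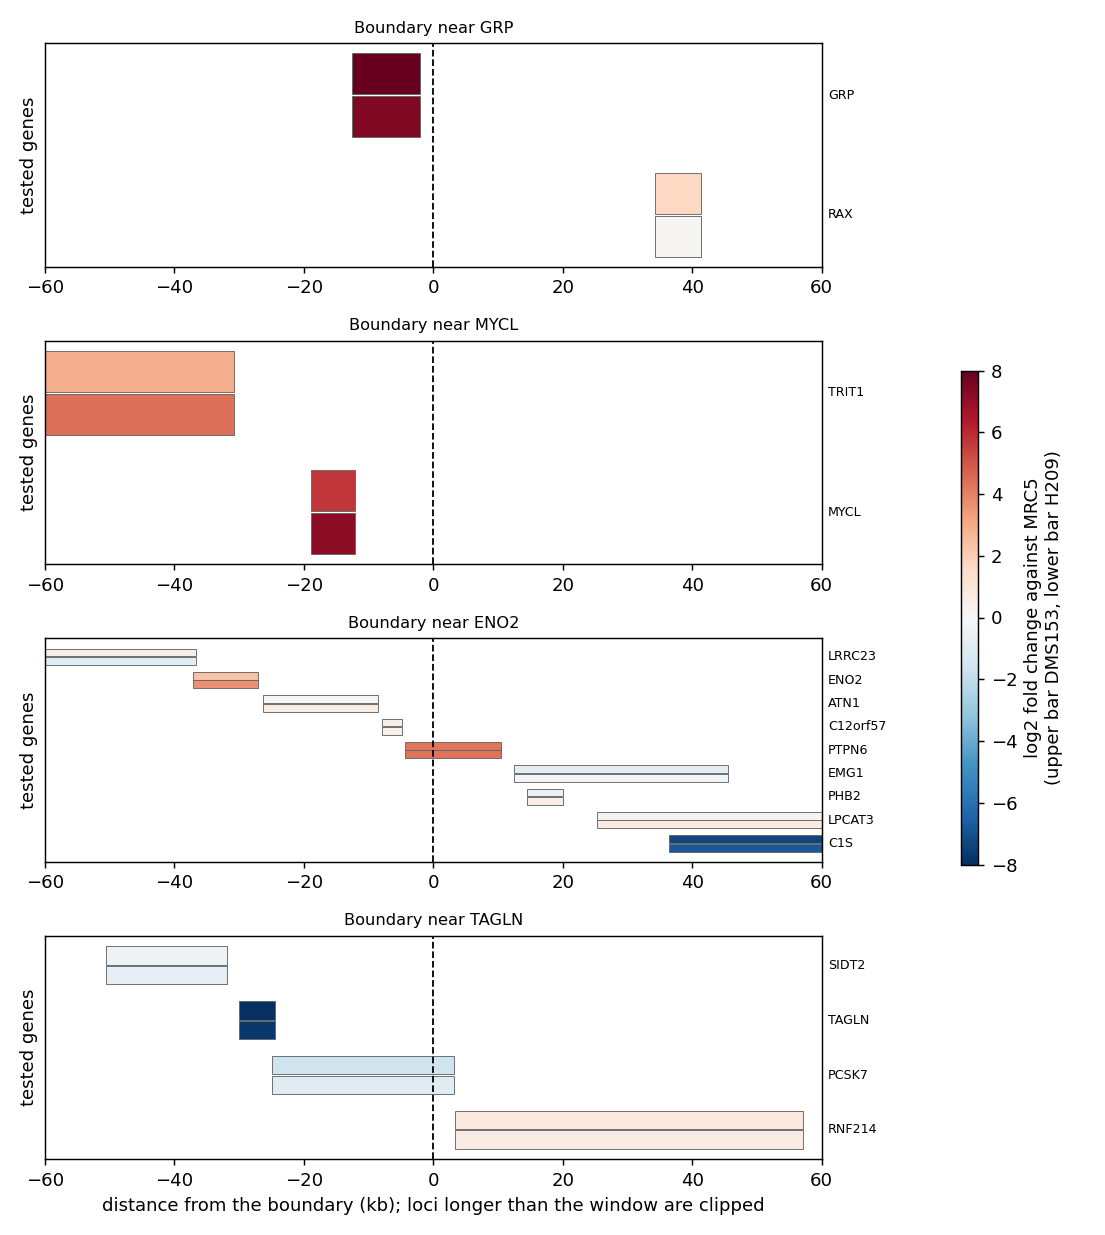
Named tested genes around 4 carcinoma-shared boundaries (dashed line at 0), placed by distance from the boundary in kb, with colour for the log2 fold change in DMS153 (upper bar) and H209 (lower bar) against MRC5. GRP and MYCL are red and TAGLN and C1S dark blue in both bars.

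At 4880000 on chromosome 17 the calls ran the other way, with 5 of 13 tested genes lower and none higher in DMS153, and 4 lower and 1 higher in H209. KIF1C, a kinesin motor, had 1.53, 1.28 and 1.08 FPKM in DMS153, 7.91 and 8.62 in H209, and 54.2, 57.6 and 51.1 in MRC5. PFN1, the actin monomer binder profilin, had 108, 112 and 110 FPKM in DMS153, 148 and 148 in H209, and 366, 467 and 399 in MRC5. Both were lower in every carcinoma library, and the PFN1 call in H209 was lost under quantile normalization at a log2 fold change of -0.97. The 1 gene called higher in H209, RNF167, lost its call under median ratio scaling, at 0.41. The lower call of SPAG7 in H209 was lost under TPM scaling, at -0.90. CAMTA2, a transcription activator that held the boundary, had 8.06, 8.29 and 10.9 FPKM in DMS153, 25.8 and 27.8 in H209, and 40.6, 41.4 and 37.9 in MRC5, and was called lower in DMS153 only.

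At 12979999 on chromosome 19, 6 of 8 tested genes were called higher in each carcinoma line and none lower. MAST1, a microtubule-associated kinase of neurons, held the boundary and had 26.7, 26.9 and 34.2 FPKM in DMS153, 47.9 and 52.2 in H209, and 0.423, 0.244 and 0.696 in MRC5. HOOK2, a linker of dynein to its cargo, also held it and had 68.6, 73.6 and 75.2 FPKM in DMS153, 36.1 and 38.0 in H209, and 10.3, 12.2 and 10.3 in MRC5. At 11080000 on chromosome 1, 5 of 6 tested genes were called higher in DMS153, against 1 higher and 1 lower in H209. TARDBP, the RNA-binding protein TDP-43, held that boundary and had 188, 188 and 168 FPKM in DMS153, 85.3 and 85.3 in H209, and 62.0, 60.7 and 60.8 in MRC5. MAST1 and HOOK2 were thus called higher in both lines, although their loci overlap and can share reads, while TARDBP was called in DMS153 only.

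Genes that flanked a member seldom moved in opposite directions. At 207 members a tested gene lay wholly on each side within 40 kb. The nearest genes of the 2 sides were both higher at 39 of them in DMS153 and 28 in H209, both lower at 9 and 8, and one higher and one lower at 8 (3.86%) and 11 (5.31%). Opposite calls occurred at 8.96% and 8.33% of 804 boundaries of all 3 lines, and at 13.4% and 12.7% of 134 boundaries of MRC5 only. At 141 boundaries of DMS153 only the shares were 10.6% in DMS153 and 4.26% in H209. The members had the smallest share of these classes in DMS153 but not in H209, and these differences rest on few pairs and were not tested.

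The members with opposite flanking genes in both comparisons included the following, chosen after their values were seen. At 95919999 on chromosome 9, NINJ1, a membrane protein of plasma membrane rupture, had 7.09, 7.56 and 7.30 FPKM in DMS153, 10.4 and 11.3 in H209, and 38.7, 51.3 and 44.1 in MRC5, opposite WNK2. At 43860000 on chromosome 15, MAP1A, a microtubule protein, was called lower and CKMT1B, a mitochondrial creatine kinase, higher, and CKMT1B shares near-identical sequence with CKMT1A, so its own level is uncertain. At 72599999 on the same chromosome, PARP6, an ADP-ribosyltransferase, was called higher and HEXA, a lysosomal hexosaminidase, lower in both lines.

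Some members came as pairs that enclosed a whole domain. Of the 5023 DMS153 domains, 317 had a member at each end, and 297 of these were matched by an H209 domain, with a median size of 240 kb and a range from 80 to 2000 kb. They held 428 tested genes, of which 167 (39.0%) were called higher and 59 (13.8%) lower in DMS153, and 152 (35.5%) higher and 46 (10.7%) lower in H209. These shares lay close to those of all boundary genes, which can include the same genes. Of all tested genes, 34% were called higher and 16.4% lower in DMS153, and 33% higher and 14.9% lower in H209.

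Small RNA loci near members were high in DMS153, as they were in its libraries in general. Of 27 tested near members, 18 (66.7%) were called higher in DMS153 against MRC5, compared with 80.4% of all 392 tested small RNA loci, and 3 (11.1%) in H209, compared with 8.93%. MIRLET7F2, whose product is the let-7f-5p printed above, had 2840, 2672 and 2895 FPKM in DMS153 and was listed at 0 in the H209 and MRC5 libraries. MIR98, the neighbouring locus on chromosome X with the same seed, had 81.9, 87.7 and 132 FPKM in DMS153 and was listed at 0 elsewhere. MIR200C, beside PTPN6 and ENO2, had 5.82, 0 and 27.9 FPKM in DMS153 and was listed at 0 elsewhere. MIR101-1 had 377, 320 and 350 FPKM and MIR223 had 105, 77.3 and 111 FPKM in DMS153, and both were listed at 0 elsewhere. The same mature let-7f sequence can come from another locus in the genome, so reads of MIRLET7F2 cannot be assigned with certainty. The protein-coding counts above do not include these loci.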

How the data were processed

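Contact domains came from Hi-C of 3 libraries and gene levels from RNA-seq of 8 libraries. Of the tools, HOMER 4.8, Cufflinks 2.2.0, TopHat2 2.1.0 and Bowtie2 appear in the submitters' processing notes, with the build hg19. The deposited domain lists give start, end and a score whose meaning is not stated in the sources used here, with 1 library per line, so no test compares the lines. Per the file headers, the RNA tables hold FPKM with confidence bounds and no counts, so the depth is unknown, and the median distance of a bound from its value was 10.6% to 13.6% for genes at 1 to 10 FPKM. How the RNA was selected and whether strand was kept are not given, so overlapping genes can share reads. Titles of the DMS153 RNA libraries read DM153 and their cell line field DMS153.

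The boundary rule is given at the start of the results. Starts and ends of the lists differ by 1 base on a 20 kb grid. Genes were counted when their locus came within 40 kb. Biotypes were matched to RefSeq by identifier or symbol for 31017 of 57815 loci. All 8 RNA libraries entered 1 limma fit (limma 3.58.1, R 4.3.3) of log2(FPKM + 1), with a mean per line, 5 residual degrees of freedom, eBayes with a trend and Benjamini-Hochberg adjustment over 19066 genes, for 3 two-sided comparisons; the script was tested on simulated data. No fold change is printed against a line whose libraries all list a gene at 0, although medians include such genes.

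The members, the lists and the rules were chosen with earlier results of these data known. Named genes were the 12 highest and 12 lowest by the smaller change of the 2 carcinoma lines with no overlap and a mean of at least 5 FPKM, the 5 highest and 5 lowest between the carcinoma lines, up to 4 of each list, and those at the 5 members with most calls and the 3 farthest from MRC5; other genes named were added after their values were seen. Alternatives changed the windows, tolerances, joining, pseudocount, filter, scaling, fit, block and libraries. Promoters of EPCAM, TAGLN, ST14 and C1S are named only. Some genes that the rule names are not reported here.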

Additional observations from a re-analysis of the deposited data

Results flagged for a closer look

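At 3 boundary genes the carcinoma lines were called in opposite directions against MRC5, and the difference between the lines was tested directly in DMS153 against H209. PNPLA4, a lipase of the patatin family, had 13.2, 13.9 and 13.4 FPKM in DMS153, at most 0.000987 in H209, and 3.71, 3.36 and 3.75 in MRC5, and the effect in DMS153 exceeded that in H209 by 3.859 on the log2 scale (SE 0.08, limma adjusted p = 1.14e-09). CPXM1, a carboxypeptidase-like secreted protein, had 0.0127, 0.0252 and 0.00873 FPKM in DMS153, 22.6 and 27.3 in H209, and 1.45, 1.45 and 1.26 in MRC5, a difference of -4.669 (SE 0.10, limma adjusted p = 1.18e-09). BEND7, a BEN domain protein, had 0.254, 0.109 and 0.171 FPKM in DMS153, 11.8 and 12.2 in H209, and 4.32, 4.31 and 5.22 in MRC5, a difference of -3.464 (SE 0.10, limma adjusted p = 9.41e-09). The libraries of the 3 lines did not overlap for any of these genes, which their choice required between DMS153 and H209. The call of BEND7 in H209 was lost under median ratio scaling and quantile normalization.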

How the results depend on the processing

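The count of 1431 members became 1297 and 1554 with H209 tolerances of 20 and 60 kb, 1824 and 1198 with MRC5 distances of 20 and 80 kb, and 1125 to 1698 under the remaining alternatives. The counts of called boundary genes moved by more than 1.5 times in 3 settings. Without a minimum fold, 470 were lower in DMS153 against MRC5, 981 higher and 438 lower in H209 against MRC5, and 680 higher and 599 lower in DMS153 against H209. Median ratio scaling gave 369 lower in H209 against MRC5, and TPM scaling 173 higher and 497 lower in DMS153 against H209; the cause was not tested. Leaving out each RNA library in turn gave 691 to 703 higher and 248 to 254 lower in DMS153 against MRC5, 612 to 621 higher and 233 to 239 lower in H209 against MRC5, and 255 to 264 higher and 189 to 201 lower in DMS153 against H209. With the replicate number as a block, the counts were 704 and 253, 620 and 230, and 252 and 196; same-numbered libraries of DMS153 and MRC5 had deviations correlated at 0.08, 0.07 and -0.01, and replicate 3 did not correlate best with its own number, so the numbers were not taken to pair the libraries. For the 87 named genes, 5101 of 5214 values kept their direction and call, 29 lost the call, 84 gained it and 0 changed sign with a call. Depth is unknown, and 1 Hi-C library per line sets no error on the boundaries.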
